A study of Homo sapiens with 4 samples.

Results

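The mRNAs described here encode the nuclear subunits of respiratory complex I. They were taken from the deposited count table as the protein-coding genes whose symbol is NDUFA, NDUFB, NDUFC, NDUFS or NDUFV followed by a number, which gave 37 of the 60676 genes. The cells were U2OS, a human osteosarcoma line in long use. The assay, nRIP-seq, captures a nuclear protein with an antibody under native conditions, without crosslinking, and sequences the polyadenylated RNA that comes down with it. The 4 groups were an LC3B antibody capture (LC3B pull-down), a capture with control IgG (IgG pull-down), and a separate input without antibody for each, called the LC3B input and the IgG input. The labels name no other treatment or genotype for any of them. With 1 library in each group, the spread between repeats is unknown and p-values are not given. The study asked which mRNAs are bound by LC3B, a ubiquitin-like protein of autophagosome membranes that is also found in the nucleus.

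Complex I, NADH:ubiquinone oxidoreductase, takes electrons from NADH, passes them through a flavin and a chain of iron-sulfur clusters to ubiquinone, and pumps protons across the inner mitochondrial membrane. It is L-shaped, with a matrix arm that carries the redox centres and a membrane arm that carries the pumps. Mitochondrial DNA encodes 7 subunits of the membrane arm, the pumps among them. All other subunits are encoded by nuclear genes that are transcribed in the nucleus, translated in the cytosol and imported. The members were ordered by these roles into 7 core subunits of the matrix arm, 9 accessory subunits of the matrix arm, 20 accessory subunits of the membrane arm, and NDUFA4. NDUFA4 was first described with complex I and is now assigned to cytochrome c oxidase, but its symbol meets the rule.

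The genes lie on 18 chromosomes, with at most 6 on any one, chromosome 19. RefSeq promoters (GRCh38.p14, 250 bases before to 50 after a start) were matched by symbol for 31 of the 37. Those of the 3 members with the lowest ratio of LC3B to IgG pull-down are shown, because the results below turn on these genes. They lie at chr18:9102449-9102748 on the plus strand (NDUFV2), chr12:95003648-95003947 on the minus strand (NDUFA12) and chr12:4648864-4649163 on the plus strand (NDUFA9). Capitals mark matches to the motifs of NRF1, a regulator of respiratory genes, of the ETS family (CCGGAAGT) and of YY1 (AAGATGGC), each searched on both strands.
NDUFV2: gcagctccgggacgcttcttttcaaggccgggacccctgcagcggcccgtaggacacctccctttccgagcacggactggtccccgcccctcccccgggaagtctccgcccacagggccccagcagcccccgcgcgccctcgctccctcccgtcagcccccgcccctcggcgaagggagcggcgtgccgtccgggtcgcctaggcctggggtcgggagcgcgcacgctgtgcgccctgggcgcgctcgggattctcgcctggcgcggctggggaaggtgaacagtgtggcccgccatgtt
NDUFA12: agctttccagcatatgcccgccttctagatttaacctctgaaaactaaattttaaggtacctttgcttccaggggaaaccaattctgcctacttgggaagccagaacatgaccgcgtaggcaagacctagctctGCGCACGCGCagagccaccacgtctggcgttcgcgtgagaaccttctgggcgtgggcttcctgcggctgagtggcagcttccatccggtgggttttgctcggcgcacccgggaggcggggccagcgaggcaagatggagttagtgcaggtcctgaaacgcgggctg
NDUFA9: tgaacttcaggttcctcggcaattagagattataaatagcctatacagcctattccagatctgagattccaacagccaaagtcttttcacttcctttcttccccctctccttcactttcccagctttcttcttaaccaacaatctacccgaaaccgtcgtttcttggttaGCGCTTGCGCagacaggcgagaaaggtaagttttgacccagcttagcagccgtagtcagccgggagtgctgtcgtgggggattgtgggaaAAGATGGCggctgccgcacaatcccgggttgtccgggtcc
The NRF1 motif was in 6 of the 38 promoters of the members, 15.8%, against 5.78% of all 35116 promoters in the table. For the YY1 motif the shares were 7 of 38 (18.4%) against 2.89%, and for the ETS motif 2 of 38 (5.26%) against 4.14%. NDUFA12 and NDUFA9 had an NRF1 match and NDUFA9 also a YY1 match, while NDUFV2 had none of these letters in its window. These matches describe the genes and were not compared with the recovery of their RNA.

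Total counts were 10000914 to 10886762 per library. Mitochondrial genes took 22.8% and 20.8% of the inputs but 1.76% and 0.774% of the IgG and LC3B pull-downs, so levels are given as CPM, with the counts outside the mitochondrial chromosome scaled to 1000000 in each library. They are shares of a library, and more RNA of these genes cannot be told apart from less of all others. The IgG pull-down stood apart: 14440 genes had a read in it, against 22947 to 23915 in the other libraries. The LC3B pull-down over its own input does not use that library, and its values are given as well. Of 8 bone-lineage markers, SPARC, COL1A1, RUNX2 and ALPL were above 1 CPM in the inputs, whereas IBSP and SP7 had 0 reads and BGLAP and COL1A2 at most 2 in an input. Of 10 markers of other cell types, 5 reached 1 CPM in the inputs, and the summed level of the 10 was 25.9 to 29.5 CPM over the 4 libraries. Most of that sum was the epithelial marker EPCAM, at 18.2 and 15.0 CPM in the IgG and LC3B inputs. That is near the bone-lineage markers ALPL (19.6 and 18.8 CPM) and RUNX2 (20.1 and 24.8 CPM), and below COL1A1 and SPARC.

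All 37 members passed the filter of a mean of 1 CPM and were well covered, the lowest count in any library being 200 (NDUFV3 in the IgG pull-down). Of all counts outside mitochondrial genes, the members made up 0.801% in the IgG input, with an exact binomial 95% interval of 0.795 to 0.807, and 0.828% (0.822 to 0.834) in the LC3B input. With IgG they made up 1.02% (1.016 to 1.029), and with LC3B 0.844% (0.839 to 0.850). The share was thus highest with IgG, and with LC3B it lay close to its input. NDUFB9, an accessory subunit of the membrane arm, supplied 19.5% to 22.1% of these counts. Without it the shares were 0.645% in each input, 0.814% with IgG and 0.664% with LC3B, in the same order. All intervals in the text describe counting error alone, and PCR copies without molecular identifiers are not independent molecules.

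**Figure D1:**
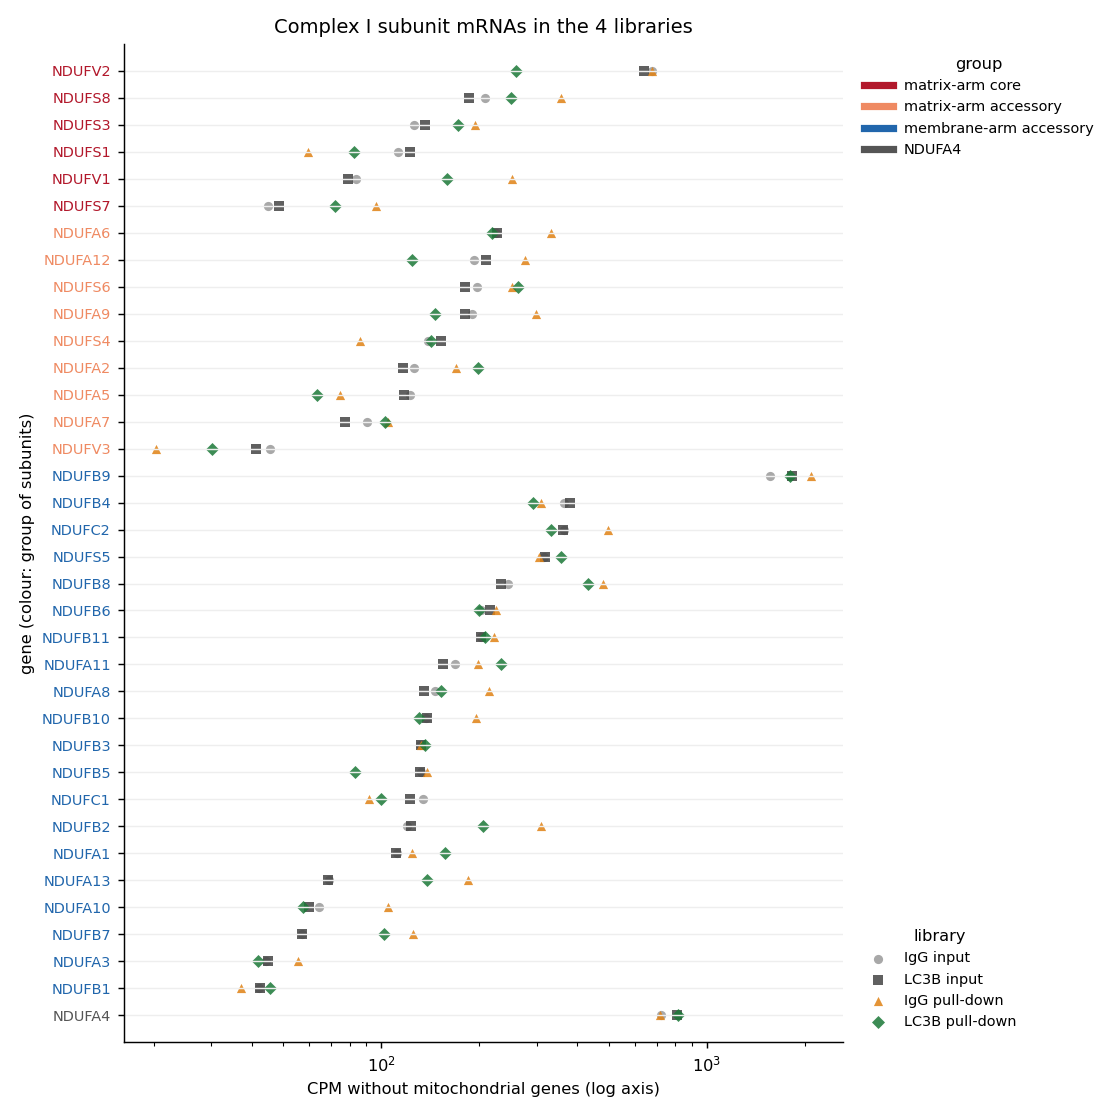
Each row is 1 of 36 genes, coloured by its group of subunits, and each symbol is 1 library; the horizontal log axis gives CPM, scaled without mitochondrial genes. The 2 inputs lie close together in every row, while the IgG pull-down (triangles) is the highest of the 4 for NDUFV1 and NDUFB2 and the LC3B pull-down (diamonds) is the lowest for NDUFV2 and NDUFA12.

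Levels of different genes were compared per transcript length, from the deposited TPM rescaled without mitochondrial genes and averaged over both inputs. The members' mRNA levels ran from 21.0 TPM (NDUFV3) to 3655 TPM (NDUFB9), a ratio of 174, and from 21.0 to 1074 TPM without NDUFB9. After NDUFB9 came NDUFS5 at 1074 TPM, NDUFV2 at 1067 TPM and NDUFB4 at 869 TPM. The core subunits, which hold the flavin and the iron-sulfur clusters, had a median level of 83.1 TPM, against 233 TPM for matrix-arm and 323 TPM for membrane-arm accessory subunits. Of the 7 core genes, NDUFS3, NDUFS7, NDUFV1 and NDUFS1 held ranks 29, 32, 33 and 36 among the 37, at 204 TPM down to 54.3 TPM. NDUFV2 held rank 3 and NDUFS8, which carries iron-sulfur clusters, rank 13 at 380 TPM. These levels depend on transcript lengths that the authors chose and that were not given in the sources used here.

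The inputs were nearly equal for every member. The ratio of LC3B input to IgG input had a median log2 of 0.00 and an SD over members of 0.10, and it ran from a fold of 0.857 for NDUFA7 to 1.17 for NDUFB9. Of the 37, 0 were called, where a call needs the whole 95% counting interval of the fold to lie at or past 2 (higher) or 0.5 (lower). Among all 15431 genes tested 0.136% were called higher and 0.156% lower, and among the 4710 genes within the members' range of input level (42.2 to 1693 CPM) 0.00% and 0.0212%. That range was chosen after the data were seen. The largest log2 difference between inputs, 0.23, is used below as the only measure of how far 2 libraries without antibody differed.

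Whether the LC3B antibody recovered these mRNAs above control IgG is read from the ratio of the pull-downs, and 0 of the 37 were called higher. The 2 members called lower were the core subunit NDUFV2 and the matrix-arm accessory subunit NDUFA12. Folds ran from 0.385 to 1.65, with 25 members below 1 and 12 above, and the median log2 ratio was -0.21. Of all genes tested, 33.8% were called higher and 9.45% lower, with a median of 0.41. Among the 4710 genes of like input level these shares were smaller: 13.4% were called higher and 6.73% lower, with a median of 0.02. The 2 of 37 called lower are thus near the background, whereas 0 of 37 called higher is below it in both sets of genes. No member had 0 reads in any library, while 19.7% of all genes tested and 0.743% of those in the range had none in the IgG pull-down.

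**Figure D2:**
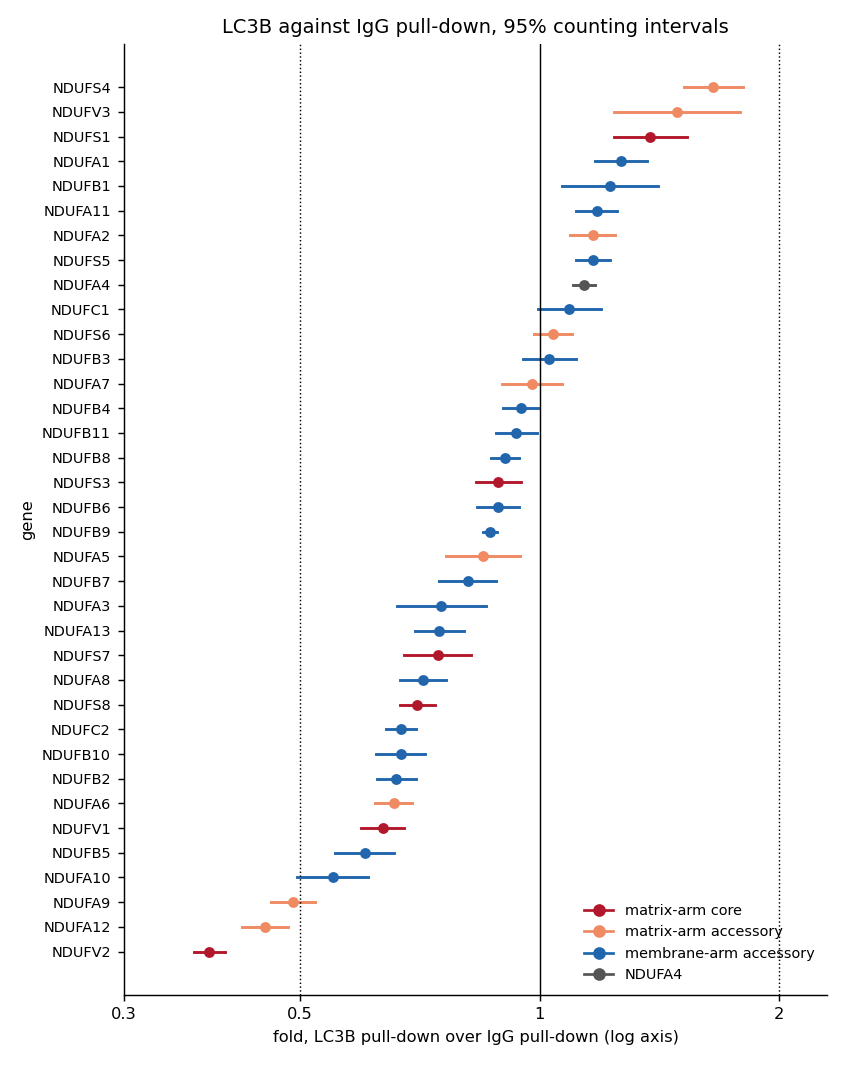
Points are the fold of CPM in the LC3B over the IgG pull-down for each of 36 genes, bars the 95% counting interval, on a log axis with dotted lines at 0.5 and 2. Colours give the group of subunits; only NDUFV2 and NDUFA12 lie wholly below 0.5, and no gene reaches 2.

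NDUFV2, a core subunit that binds an iron-sulfur cluster beside the flavin (ENSG00000178127, hg38 chromosome 18, 9102630 to 9134345), was the lowest. It had 5708 reads (679 CPM) in the IgG input, 5477 (641 CPM) in the LC3B input, 6641 (676 CPM) in the IgG pull-down and 2698 (260.0 CPM) in the LC3B pull-down. The LC3B pull-down was therefore the low library, and the remaining libraries were alike. The fold was 0.385 over IgG (0.368 to 0.402) and 0.406 over the LC3B input (0.387 to 0.425), and the IgG pull-down stood at 0.995 of its input (0.960 to 1.03). Its processed pseudogene NDUFV2P1 had 128, 111, 148 and 65 reads in the same order of libraries. The gene and its pseudogene thus kept the same pattern, and how reads were divided between them was not stated.

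NDUFA12, which lies where the NADH-binding part joins the rest of the matrix arm (ENSG00000184752, chromosome 12, 94897055 to 95003748), had 1621 reads (193 CPM) in the IgG input and 1790 (209.5 CPM) in the LC3B input. It had 2712 (276 CPM) in the IgG pull-down and 1293 (125 CPM) in the LC3B pull-down. The IgG pull-down was above both inputs and the LC3B pull-down below both, with a fold of 0.451 between the pull-downs (0.422 to 0.483). NDUFA9, a subunit of the short-chain dehydrogenase family (ENSG00000139180, chromosome 12, 4649095 to 4694317), had the same order at 1601 and 1542 reads in the IgG and LC3B inputs, 2937 with IgG and 1520 with LC3B. Its fold of 0.490 (0.460 to 0.522) just missed the call. NDUFA9 overlaps AC005832.4 and AC005833.1 on the same strand, which had 1797 and 1736 reads in the IgG pull-down and 864 and 783 in the LC3B pull-down, and how reads of this locus were divided was not stated.

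At the other end were accessory and core subunits of the matrix arm that the IgG pull-down recovered poorly. NDUFS4, which holds the NADH-binding part in place and is a frequent site of mutation in complex I deficiency, had 1167 and 1300 reads in the IgG and LC3B inputs, 844 with IgG and 1473 with LC3B. Its fold was 1.65 (1.52 to 1.80) between the pull-downs. NDUFV3, an accessory subunit next to the flavin, had 382 and 352 reads in the inputs, 200 with IgG and 314 with LC3B, a fold of 1.49 (1.24 to 1.78). NDUFS1, the largest core subunit, had 947 and 1046 reads in the inputs, 586 with IgG and 853 with LC3B, a fold of 1.38 (1.24 to 1.53). For each of these the LC3B pull-down lay above the IgG pull-down but not above input: relative to input, LC3B recovered them at 0.933, 0.734 and 0.671, and none was called.

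By group, the core subunits had the lowest median log2 ratio of LC3B to IgG pull-down, -0.51, with 6 of 7 below 0 and NDUFS1 above. Without the IgG library the order turned: relative to the LC3B input the core subunits had the highest median with LC3B, 0.43 (5 of 7 above 0), against -0.10 for matrix-arm and 0.04 for membrane-arm accessory subunits. The core subunits were also the highest with IgG relative to its input, at 0.77, against 0.35 and 0.28. Between the pull-downs, matrix-arm accessory subunits had a median of -0.03 (5 of 9 below 0), and membrane-arm accessory subunits of -0.19 (14 of 20 below 0), with folds from 0.549 for NDUFA10 to 1.26 for NDUFA1. NDUFA4 stood at 1.14 (1.10 to 1.17) between the pull-downs and at 1.011 (0.979 to 1.04) with LC3B over input. No member of any group was called higher with LC3B, and the ranges of the groups overlapped.

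Relative to the LC3B input, the LC3B antibody recovered the members at about the input level. The median log2 ratio was 0.04, with 20 members above 0 and 17 below, and NDUFV2 was the only call, lower. This median lies at the border, at -0.06 in deposited TPM, and with mitochondrial genes in the totals 4 members were called higher and 0 lower. Among all genes tested 1.40% were called higher and 4.48% lower with a median of 0.01, and in the range of the members 0.998% and 8.62% with a median of -0.12. The 1 of 37 called lower and the 0 called higher are both near a background of this size and are not read as a trait of the members. Beyond the largest difference between inputs lay 14 members above (37.8%) and 9 below (24.3%), against 30.9% and 44.9% of the genes of like level. The share above is thus near the background and the share below is under it.

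The highest were NDUFV1 and NDUFA13. NDUFV1, the core subunit that binds NADH and the flavin, had 703 and 676 reads in the IgG and LC3B inputs and 1654 with LC3B, a fold of 2.01 (1.84 to 2.21). NDUFA13, also known as GRIM-19, sits in the membrane arm near the quinone site and had 582 and 585 reads in the inputs and 1428 with LC3B, a fold of 2.01 (1.82 to 2.22). The third was NDUFB8, a membrane-arm accessory subunit, with 2052 and 1990 reads in the inputs, 4694 with IgG and 4482 with LC3B, a fold of 1.85 (1.76 to 1.956). None of these was called, since each interval reached below 2. The lowest after NDUFV2 were NDUFA5, with 1029 and 1001 reads in the inputs, 731 with IgG and 656 with LC3B (fold 0.540, 0.488 to 0.596), and NDUFA12 at 0.595 (0.553 to 0.639).

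The IgG pull-down, in which no antibody against LC3B was present, recovered the members above input more often. The median log2 ratio was 0.35, 27 members lay above 0 and 10 below, and 4 were called higher and 0 lower. Of all genes tested 9.69% were called higher and 33.6% lower, with a median of -0.43; in the range of the members 4.56% and 16.6%, with a median of -0.16. The 4 of 37 called higher are thus near the share among all genes and above that in the range, and the 0 of 37 called lower is below both. Among the called genes were NDUFV1, NDUFA13 and NDUFB2. By point folds without the interval, 6 were higher and 1, NDUFV3, lower, in CPM and in deposited TPM alike.

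NDUFV1 had 2467 reads with IgG against 703 in its input, a fold of 3.002 (2.76 to 3.27). NDUFA13 had 1807 against 582 (2.66, 2.42 to 2.92), and NDUFB2, a small membrane-arm subunit, 3047 against 1008 (2.59, 2.41 to 2.78), with 1056 and 2126 reads in the LC3B input and pull-down. NDUFB7 at 2.20 (1.98 to 2.45) and NDUFS7 at 2.16 (1.91 to 2.44) just missed the call. These 5 also lay above input with LC3B, at folds from 1.49 (NDUFS7) to 2.01 (NDUFV1), and each was higher with IgG than with LC3B. The lowest with IgG were NDUFV3 at 0.448 (0.376 to 0.533), NDUFS1 at 0.529 (0.477 to 0.587) and NDUFA5 at 0.608 (0.552 to 0.669), and these lay below input with LC3B too.

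**Figure D3:**
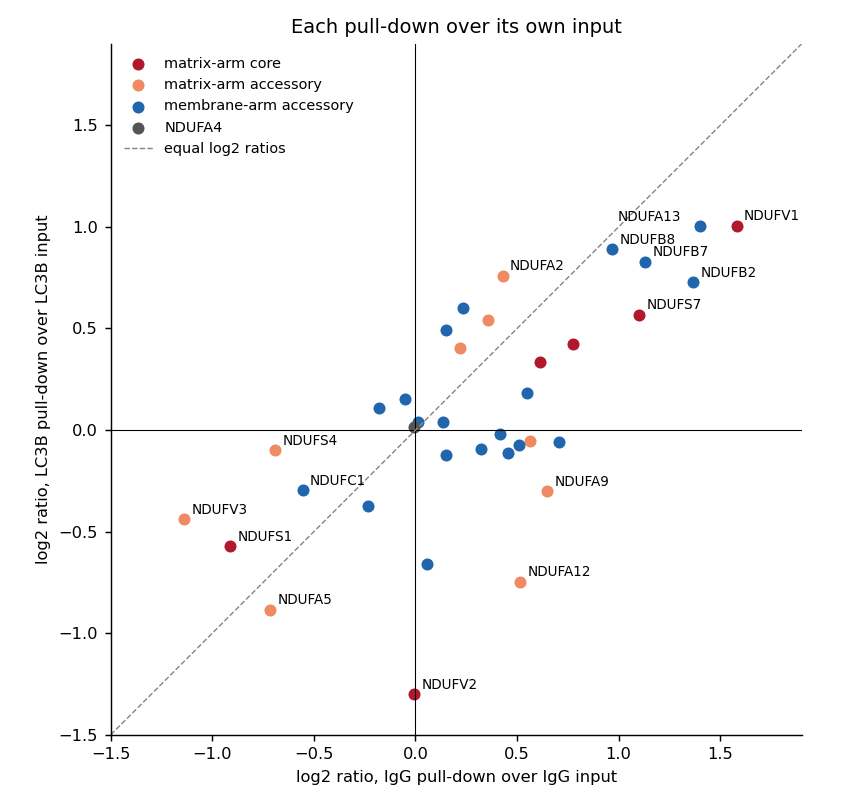
Each point is 1 of 36 genes, placed by its log2 ratio of the IgG pull-down over the IgG input (horizontal) and of the LC3B pull-down over the LC3B input (vertical); the dashed line marks equal ratios. The points run from NDUFA5 and NDUFV3 at the lower left to NDUFV1 at the upper right, with NDUFV2, NDUFA12 and NDUFA9 below the dashed line.

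The pull-downs share no library with each other or through their inputs, and their departures from input were correlated across the members. Across the 37 genes departure from input with LC3B and with IgG, each as a log2 ratio, had a Pearson r of 0.68 and a Spearman rho of 0.64, and 0.71 and 0.64 without NDUFV2. Over the 4710 genes in the same range r was 0.37 and rho 0.43, and over all 15431 genes r was 0.16 and rho 0.18. These values describe genes of the same cells and kit, and genes are not independent replicates. Both ratios were above 0 for 17 members and below 0 for 7. LC3B was below and IgG above input for 10, and the reverse held for 3. The matching counts over other genes were not made, so these counts are not read as a trait of the members. For log2 CPM over the 37 genes, r was 0.92 between the pull-downs, 0.89 for LC3B with its input and 0.86 for IgG with its input. The rho values were 0.88, 0.84 and 0.81, and r between the inputs was 0.997. Over the 4710 genes in the range r was 0.73 between the pull-downs, 0.84 for LC3B with its input and 0.71 for IgG with its input. There the LC3B pull-down was thus closer to its input than to the IgG pull-down.

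Among features that the choice of genes did not use, the gene's span had a rho of -0.44 with the LC3B ratio over input and of -0.15 with the IgG ratio. For reads per TPM, a stand-in for transcript length, rho was -0.26 and -0.07. The input level had a rho of -0.26 and -0.15, against -0.05 and 0.06 over genes in the members' range and -0.18 and 0.10 over all genes tested. Span and length were not compared over other genes. The 6 members on chromosome 19 (NDUFA3, NDUFA7, NDUFA11, NDUFA13, NDUFB7 and NDUFS7), picked out after their values were seen, had a median log2 ratio over input of 0.58 with LC3B and of 0.71 with IgG. The other 31 had -0.02 and 0.35. Chromosome 19 genes at large had the same tendency: over 229 of them in the range of the members the medians were 0.51 and 0.37, against -0.17 and -0.19 for the 4481 genes of that range on other chromosomes. In all, 10 members overlap another gene that had at least 10% of their reads in some library. They are NDUFA2, NDUFA3, NDUFA7, NDUFA9, NDUFB2, NDUFB3, NDUFB8, NDUFB11, NDUFC1 and NDUFS3. Their counts are uncertain because neither the strand setting nor how shared reads were divided was stated. The overlaps of NDUFA9, and that of NDUFS3 with PTPMT1, are on the same strand, where a strand setting could not separate the genes. Pseudogenes of the members numbered 54, of which 7 had a read, and together they held 0.0822% to 0.205% of the members' reads, mostly in NDUFV2P1.

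**Figure D4:**
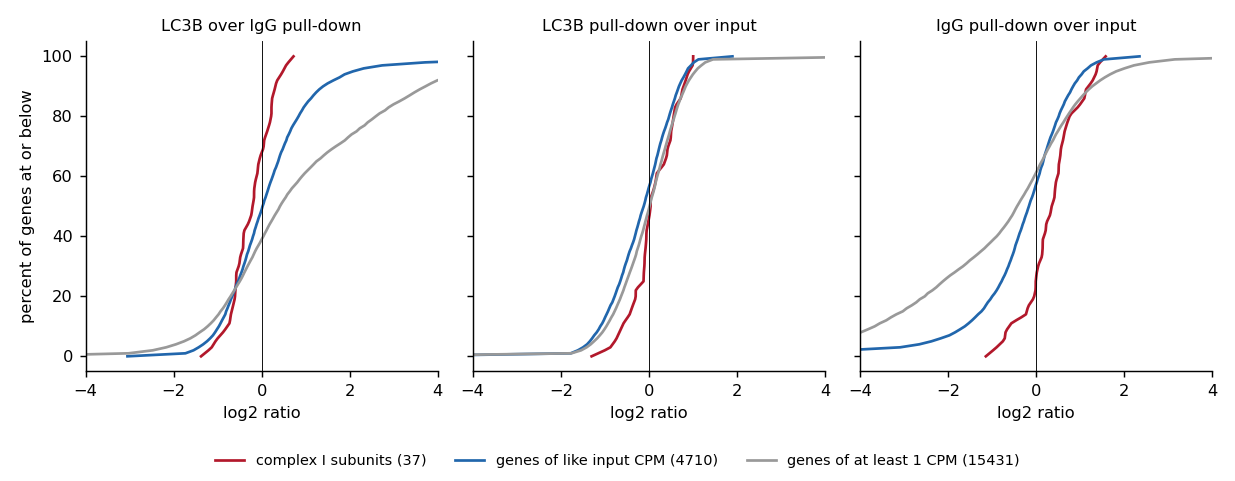
Curves give the percent of genes at or below each log2 ratio, for the 37 complex I genes (red), the 4710 genes of like input level (blue) and all 15431 genes tested (grey), in 3 comparisons. In the left panel the red curve ends at 0.72 while the others extend past 2; in the right panel its median, 0.35, lies to the right of the other medians, -0.16 and -0.43.

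Dividing the LC3B ratio over input by the IgG ratio over input called the same 2 members lower and 0 higher. NDUFV2 stood at 0.408 (0.385 to 0.432) and NDUFA12 at 0.416 (0.378 to 0.457), and the median log2 was -0.28. Of all genes tested 29.1% were called higher and 7.58% lower by this ratio, and of those in the range 12.3% and 5.84%. The highest members, NDUFV3 at 1.64 (1.30 to 2.06) and NDUFS4 at 1.51 (1.34 to 1.69), were uncalled.

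The other genes of complex I differed by the genome that encodes them. The 7 subunits of mitochondrial DNA were called lower with each antibody relative to input, and lower with LC3B than with IgG. They lie outside the genes that gave the percents above. Over input their folds were 0.0141 (MT-ND5) to 0.0385 (MT-ND1) with LC3B and 0.0684 (MT-ND4) to 0.195 (MT-ND4L) with IgG. MT-ND4, a proton pump, had 56842 and 49303 reads in the IgG and LC3B inputs, 4544 with IgG and 908 with LC3B. The lowest nuclear member, NDUFV2 with LC3B, stood at 0.406. NDUFAB1, the acyl carrier protein of the complex, has a symbol outside the rule and had 1725 and 1741 reads in the inputs, 2437 with IgG and 1780 with LC3B. Its fold between the pull-downs was 0.692 (0.650 to 0.735), within the range of the members, and 0.842 (0.787 to 0.900) with LC3B over input.

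**Figure D5:**
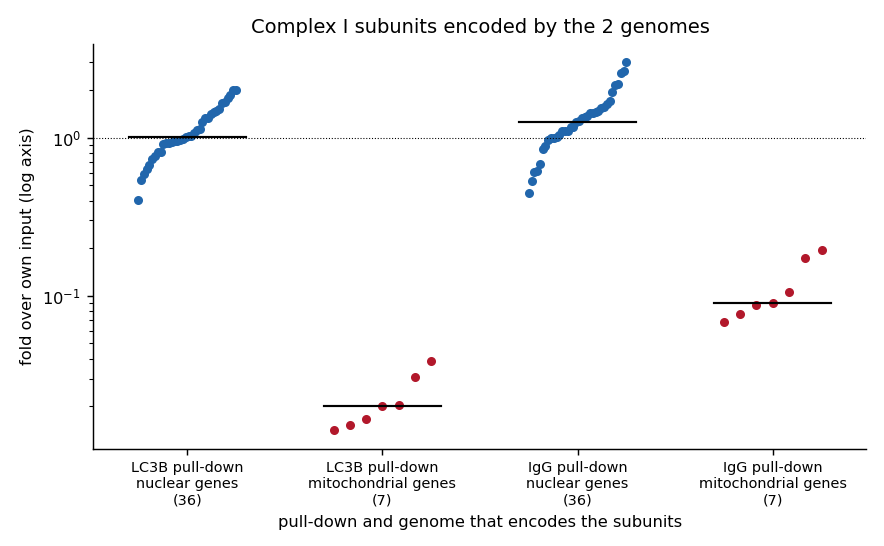
Points are the fold of a pull-down over its own input on a log axis for 36 nuclear-encoded (blue) and 7 mitochondrially encoded (red) subunits, sorted within each column, and black lines are medians. The red medians are 0.0201 with LC3B and 0.0904 with IgG, below all blue points.

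Assembly factors build complex I without staying in it, and all 18 listed were measured. Between the pull-downs 2 were called higher with LC3B and 0 lower. Of all genes tested 33.8% were called higher and 9.45% lower, and of the genes in the members' range 13.4% and 6.73%. The 2 of 18 higher are thus below the share among all genes and near that in the range, although some of the 18 lie below that range. FOXRED1, a flavoprotein, had 195 and 281 reads in the IgG and LC3B inputs, 134 with IgG and 453 with LC3B, a fold of 3.20 (2.63 to 3.91) between the pull-downs and of 1.33 (1.14 to 1.55) with LC3B over input. NUBPL, which delivers iron-sulfur clusters, had 78 and 103 reads in the inputs, 0 with IgG and 81 with LC3B. Its call rests on the 0 with IgG, which 19.7% of all genes tested share. It lay below its input with LC3B, at 0.647. The median log2 ratio of the 18 between the pull-downs was -0.22, near that of the members, but their folds were wider, from 0.473 for NDUFAF6 upwards. Over input none was called with LC3B, while with IgG ECSIT was called higher, at 2.78, and NUBPL lower.

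Larger lists of nuclear genes give the setting. Of complexes II to V 40 of 41 listed genes passed the filter and had a median log2 ratio of LC3B to IgG pull-down of -0.06, with 2 called higher and 4 lower. The 75 mitochondrial ribosomal proteins had -0.38, with 0 higher and 10 lower, and the 80 cytosolic ribosomal proteins that passed, of 81, 0.64, with 17 higher and 0 lower. Of all genes tested 33.8% were called higher and 9.45% lower, and of those in the members' range 13.4% and 6.73%. The 17 of 80 higher are thus below the share among all genes and above that in the range. The value for complex I, -0.21, lay between those of the mitochondrial lists. With the LC3B pull-down over its input the medians were 0.20, -0.11 and 0.45, and with the IgG pull-down over its input 0.05, 0.26 and -0.36, against 0.04 and 0.35 for the members. These are descriptions of 4 libraries, and the differences between lists were not tested.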

How the data were processed

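Raw read counts per Ensembl gene and TPM values for 4 libraries were deposited by the authors, per the file headers, with digits grouped by commas that were removed here. The TPM values were scaled within each library by the authors, per the file headers. Per the submitters' processing notes, cutadapt 2.8, STAR 2.7.1a and build hg38 were used; the counting tool, annotation release and strand setting were not given in the sources used here. RNA was prepared with a native nuclear immunoprecipitation kit and libraries with SMART-Seq v4, per the labels' protocols.

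Counts were divided by totals without chromosome MT. Genes outside chromosome MT entered the tests when their CPM averaged 1 or more in the 4 libraries (15431 genes). Folds have exact conditional binomial (Clopper-Pearson) 95% intervals. Median log2 ratios used a pseudocount of 0.5 CPM, and the input-corrected ratio added 0.5 to each count with a log-normal interval. A count of 3 reads corresponds to 0.289 to 0.357 CPM. Calculations used Python 3.11.15, scipy 1.17.1 and pandas 2.3.3. The code for the calls was run on simulated counts with known folds and counting error only. That run cannot show how the calls fare with spread between pull-downs or PCR copies. Members, lists and the call rule were chosen with earlier results of these data known. Counts in all 4 libraries are given for members called in any comparison and for the 3 highest and 3 lowest of each pull-down comparison, and the others by range. Alternatives were other scalings, filters, bounds, pseudocounts and deposited TPM; TMM and median-of-ratios factors came from purpose-written code. Protein sequences were not used here. Of the members, 1 is counted in all totals and medians but is not reported here by name, and it is left out of the plots of single genes.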

Additional observations from a re-analysis of the deposited data

Results flagged for a closer look

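NDUFA12 and NDUFA9 were picked out because their pull-downs lay on opposite sides of input by more than counting error and by more than the inputs differed for any member. NDUFA12 stood at 0.595 of its input with LC3B and at 1.43 with IgG. NDUFA9 stood at 0.812 with LC3B and at 1.57 with IgG. Both genes lie on chromosome 12, far apart. With mitochondrial genes in the totals, NDUFA12 stayed below input with LC3B, at 0.745. NDUFA9 had a log2 ratio of -0.30 over the LC3B input. Under that scaling the members' median log2 ratio over the LC3B input rose from 0.04 to 0.36. The place of NDUFA9 below input thus depends on the scaling, and its same-strand overlaps leave its counts uncertain. How many other genes meet this rule was not counted, so there is no background for these genes. With 1 library per group the difference between the pull-downs was not tested.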

How the results depend on the processing

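No paired analysis was possible because each group holds 1 library. Of 137 recomputed counts of called members and medians, 119 stayed within 1.5 times the value given (counts) or within the SD of 0.10 between inputs (medians). The filters and pseudocounts among these settings could hardly move any value, since the lowest member had 42.2 CPM in the inputs. Their part of the 119 is therefore no sign of stability. With mitochondrial genes in the totals, 4 members were called higher over the LC3B input (NDUFV1, NDUFA13, NDUFB7 and NDUFB8) and 0 lower, 8 were called higher over the IgG input, and the medians over input were 0.36 with LC3B and 0.70 with IgG. The median of all genes moved alike, to 0.32 and -0.10, so that the members stood 0.05 and 0.80 above it, against 0.02 and 0.79 in the values given. The call of NDUFV2 over the LC3B input was thus lost; its fold over the IgG pull-down kept its call under each scaling. TMM and median-of-ratios scaling moved the median of LC3B over IgG to -0.33 and -0.32. They added NDUFA9 to the members called lower, as did point folds, in CPM and in deposited TPM. Members in deposited TPM were called by point folds without interval. The median over the IgG input was 0.24 there, and 1 member, NDUFV3, was lower over it, as with point folds of CPM. With bounds of 1.5, LC3B over IgG gave 1 higher (NDUFS4) and 6 lower, LC3B over input 6 higher and 3 lower, IgG over input 8 higher and 2 lower, and the input-corrected ratio 4 lower. Point folds without interval gave 2 higher over the LC3B input and 1 lower over the IgG input. Exchanging or summing the inputs, added after seeing the data, changed these counts by at most 1. Counting error is small at these depths, and the spread between repeat pull-downs is unknown.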
